A study of Mus musculus with 2 samples.

Results

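The enzymes and the repressor described here turn cholesterol into bile acids in the liver. The gene set was fixed by name as Cyp7a1, Cyp8b1, Cyp27a1, Cyp7b1, Cyp39a1, Akr1d1, Hsd3b7, Slc27a5, Baat and Nr0b2, and every probe set annotated to exactly 1 of these symbols was taken. All 10 genes were found, on 14 probe sets, among 12393 genes and 22626 probe sets on the array. Each gene was represented by whichever of its probe sets was brightest on average over both pools (mean of log2 signals), and the other probe set is given where there was one.

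Liver RNA came from male apolipoprotein E-deficient mice of a C57BL/6J/ OLA129 background, a strain that clears remnant lipoproteins poorly. The labels give an age of 2 months, which is shorter than the 10 weeks of treatment and so cannot be the age at liver collection. The squalene pool came from mice on chow whose drink of 1% glycerol carried squalene, at a daily dose of 1 g per kg, over 10 weeks. Squalene is the linear hydrocarbon from which all sterols are made. The control pool came from mice of the same genotype, sex and age on chow with the 1% glycerol drink alone, also for 10 weeks. Each pool was read on 1 Affymetrix array, how many animals were pooled is not given in the labels, and the difference therefore has no replicate check. A value printed as a log2 ratio is the squalene pool over the control pool, and no p-value can be given.

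Bile acids are made by a pair of routes. In the classic route Cyp7a1 hydroxylates cholesterol first and sets the overall rate, and Cyp8b1 adds the hydroxyl group that makes cholic acid. In the alternative route the side chain is oxidised first, mainly by Cyp27a1, and the resulting oxysterol is hydroxylated by Cyp7b1, or by Cyp39a1 where it is the oxysterol made mainly in the brain. Both routes share the ring enzymes Hsd3b7 and Akr1d1 and the conjugating enzymes Slc27a5 and Baat. Bile acids returning to the liver activate the nuclear receptor FXR (Nr1h4), which induces Nr0b2, also called SHP, a partner protein that represses Cyp7a1 and Cyp8b1.

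Promoter sequence was looked up in the RefSeq table (build GRCm38.p6), which held 5 of the 10 genes (Cyp8b1, Cyp27a1, Akr1d1, Hsd3b7 and Nr0b2). In the 250 bases before each start, 3 sets of letters were searched on both strands: CAAGGNCA for NR5A2 (LRH-1), a receptor known to drive bile acid genes, TTANGTAA for the PAR bZIP factors such as DBP, and the E-box CACGTG. The windows of Cyp8b1 and Nr0b2 held matches and are shown because their genes are a target and a partner of NR5A2 in textbook accounts. Capitals mark the matches. Both windows are printed 5′ to 3′ in the direction of transcription, from chr9:121916306-121916555 on the minus strand for Cyp8b1 and chr4:133553126-133553375 on the plus strand for Nr0b2.
Cyp8b1: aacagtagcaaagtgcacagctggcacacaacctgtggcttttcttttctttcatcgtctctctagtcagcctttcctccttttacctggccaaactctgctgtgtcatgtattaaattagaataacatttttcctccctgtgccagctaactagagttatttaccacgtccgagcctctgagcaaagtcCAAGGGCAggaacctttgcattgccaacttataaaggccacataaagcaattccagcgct
Nr0b2: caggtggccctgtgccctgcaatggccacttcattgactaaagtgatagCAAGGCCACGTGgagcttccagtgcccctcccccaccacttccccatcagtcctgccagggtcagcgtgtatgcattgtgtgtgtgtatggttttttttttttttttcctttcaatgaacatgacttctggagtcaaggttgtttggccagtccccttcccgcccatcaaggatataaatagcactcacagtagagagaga

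The Cyp8b1 match, CAAGGGCA, began 60 bases before the start. In Nr0b2 the match CAAGGCCA began 201 bases before the start and overlapped an E-box that began at 195. Of 32851 windows of this length in the table, 5.53% held CAAGGNCA, 6.02% held CACGTG and 2.06% held TTANGTAA. None of these letters stood in the windows of Cyp27a1, Akr1d1 and Hsd3b7. These matches describe the sequence and are not shown to be bound.

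Cyp7a1 was the member with the largest difference between the pools. Its brighter probe set (probe set 1438743_at) read 2320.5 in the squalene pool, against 885.7 in the control pool, a 2.62-fold higher signal (log2 ratio 1.39). The dimmer probe set (probe set 1422100_at) read 475.3 in the squalene pool, against 183.0 in the control pool (log2 ratio 1.38, 2.60-fold). The probe sets thus differed by 0.01 in log2 ratio. That gap is smaller than is usual on these arrays: over 962 genes with a pair of bright probe sets, the median difference was 0.15, 95% of the differences were below 0.54, and the SD of a single log2 ratio worked out at 0.18. This spread covers the probes only, not animals or pools. Bright here means a signal at or above the 75th percentile of its array in both pools, 163.9 in the squalene pool and 157.4 in the control pool, and all 14 probe sets of the 10 genes met it.

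**Figure D1:**
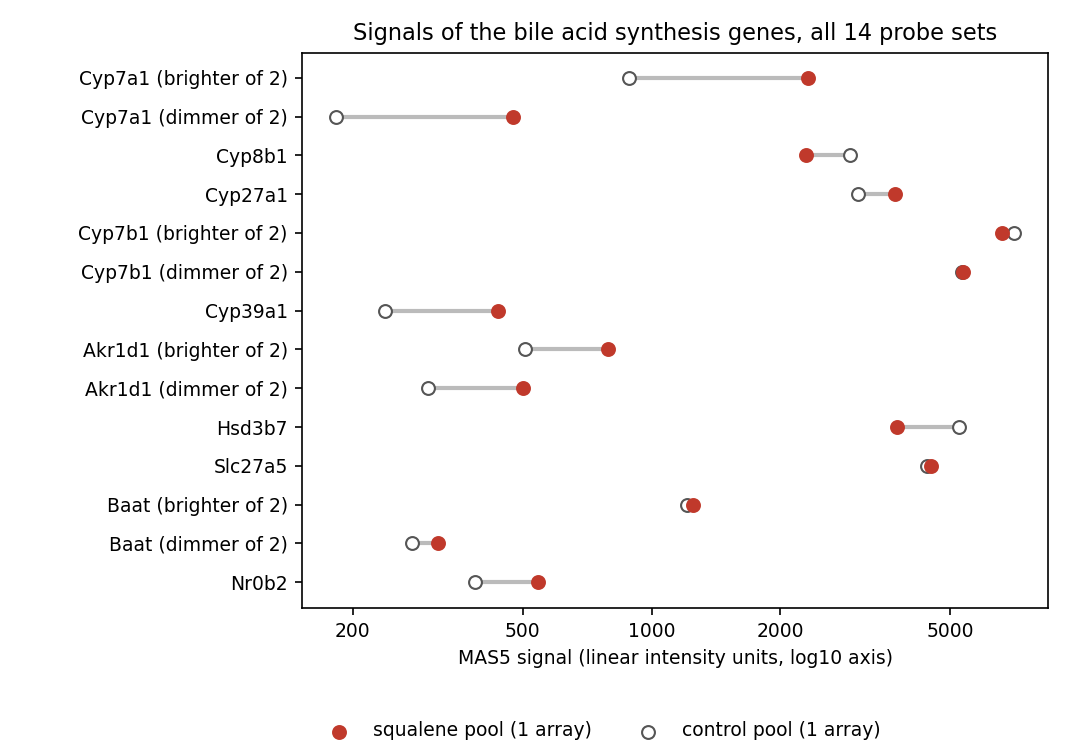
MAS5 signal (horizontal, log10 axis) of each of the 14 probe sets in the squalene pool (filled) and the control pool (open), 1 array each, with a grey line joining the pools. Both Cyp7a1 probe sets show the widest gaps, at 2320.5 against 885.7 and 475.3 against 183.0, while Cyp7b1, Slc27a5 and Baat nearly coincide; signals of different probe sets are not comparable with each other.

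Among 3442 bright genes, 3 had a higher log2 ratio than Cyp7a1. Of the bright genes, 0.581% lay more than 1.0 from 0 on the log2 scale and 0.0872% more than 1.5, the limit the submitters used as their screen. Among all 7330 measured genes, those no dimmer than the array median in either the squalene or the control pool, 2.26% passed 1.5. None of the 10 members did with the signals as deposited, where Cyp7a1 stood at 1.39. Centred on the hybridization spike-ins, control transcripts added to each sample, Cyp7a1 stood at 1.65 and was past 1.5.

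The second enzyme particular to the classic route did not share that difference. Cyp8b1 read 2293.9 in the squalene pool, against 2908.9 in the control pool, a log2 ratio of -0.34 or 1.27-fold lower, on its single probe set. Of the bright genes, 261 were lower still. Cyp7a1 and Cyp8b1 therefore lay 1.73 apart on the log2 scale, a 3.32-fold difference in their ratios. Between probe sets of the same gene, 95% of differences were below 0.54. That spread covers the probes only, not animals or pools, and sets no limit for a difference between genes. The gap between Cyp7a1 and Cyp8b1 was 1.68 after quantile normalization and 1.71 after loess, and a common scaling factor leaves it as it is.

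The alternative route had 1 member past 0.5. Cyp39a1 read 437.9 in the squalene pool, against 238.4 in the control pool (log2 ratio 0.88, 1.84-fold higher), and 20 of the bright genes stood above it. Cyp27a1, the mitochondrial sterol hydroxylase that also oxidises the side chain in the classic route, read 3708.2 in the squalene pool and 3048.2 in the control pool (0.28, 1.22-fold higher). Cyp7b1, the main oxysterol hydroxylase of liver, read 6605.3 in the squalene pool and 7038.1 in the control pool (-0.09). Its other probe set read 5359.5 in the squalene pool and 5325.4 in the control pool (0.01), so Cyp7b1 lay close to 0 on both. These oxysterol hydroxylases thus differed from each other, with Cyp39a1 0.97 above Cyp7b1 in log2 ratio.

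Members of both routes overlapped in their log2 ratios. The mean log2 ratio was 0.52 over the 2 classic genes, which spanned -0.34 to 1.39, and 0.36 over the 3 alternative genes, which spanned -0.09 to 0.88. The means differed by 0.17, with no test possible, while the genes within each route spanned more than that. The sign of that difference depends on which genes are counted: with the shared genes Akr1d1 and Hsd3b7 added to the classic route it was -0.054, and with Cyp39a1 left out of the alternative route it was 0.43. Between the enzymes that open the routes, Cyp7a1 lay 1.11 above Cyp27a1 in log2 ratio. Against the oxysterol hydroxylases of the alternative route, it lay 1.48 above Cyp7b1 and 0.51 above Cyp39a1.

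**Figure D2:**
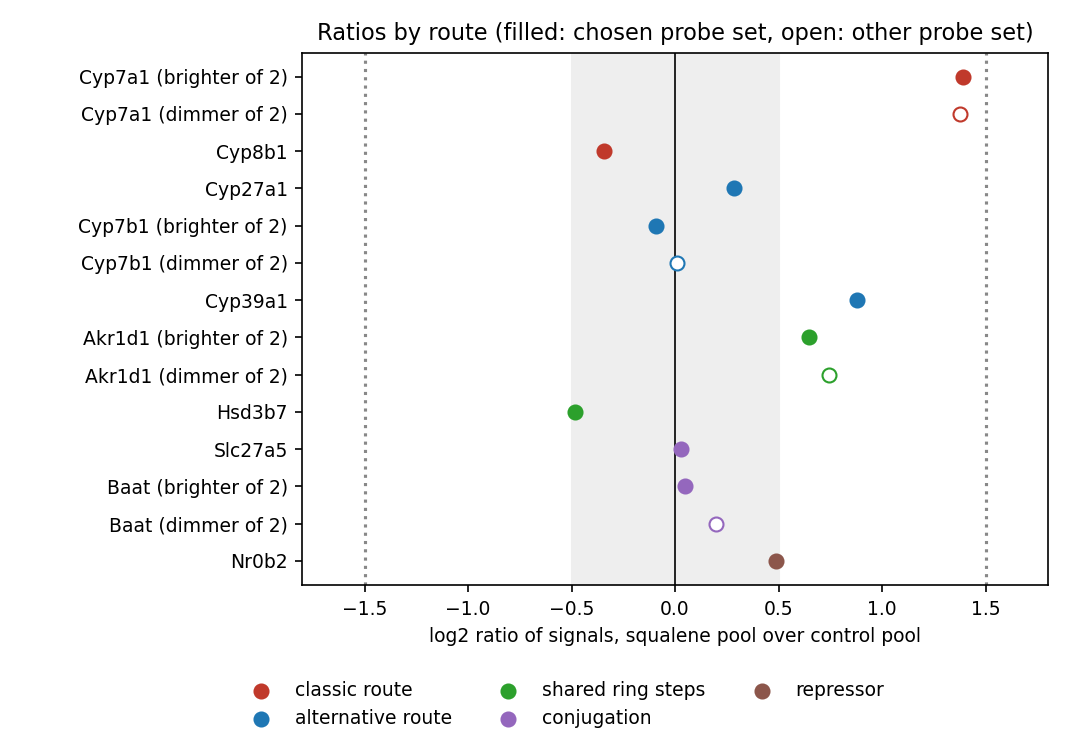
Log2 ratio of signals, squalene pool over control pool (horizontal), for each probe set, coloured by role, with filled points for the chosen probe set and open points for the other. The grey band marks 0.5 in either direction and the dotted lines the limit of 1.5; Cyp7a1 (1.39 and 1.38), Cyp39a1 (0.88) and Akr1d1 (0.65 and 0.74) lie above the band, and each route holds members on both sides of 0.

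The log2 ratios of the ring enzymes shared by both routes lay on opposite sides of 0, with Hsd3b7 just inside the band of 0.5. Akr1d1, the reductase that bends the ring system, read 790.4 in the squalene pool, against 505.3 in the control pool (log2 ratio 0.65, 1.56-fold higher). Its other probe set read 501.6 in the squalene pool, against 299.7 in the control pool (0.74), so the pair differed by 0.10. Hsd3b7, the dehydrogenase that acts before it, read 3752.1 in the squalene pool, against 5247.1 in the control pool (-0.48, 1.40-fold lower), on 1 probe set. It was the lowest of the 10 members, with 118 bright genes below it, and it lay 1.13 below Akr1d1.

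The conjugating enzymes read alike in both pools. Slc27a5, the bile acyl-CoA synthetase, read 4500.4 in the squalene pool and 4407.8 in the control pool (log2 ratio 0.03). Baat, which joins the activated bile acid to taurine or glycine, read 1252.0 in the squalene pool and 1209.5 in the control pool (0.05). Its dimmer probe set read 316.3 in the squalene pool and 275.4 in the control pool (0.20). These values lay within 0.20 of 0, about the SD of 0.18 between probe sets.

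Nr0b2, the repressor, read 542.3 in the squalene pool, against 387.2 in the control pool (log2 ratio 0.49, 1.40-fold higher), on 1 probe set. It lay just inside the band of 0.5, and 143 bright genes stood above it. The repressor and its target Cyp7a1 thus both had log2 ratios above 0, while that of its other target Cyp8b1 was below 0. Nr0b2 and Cyp8b1 were both inside the band, on 1 probe set each.

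Over all 10 members the median log2 ratio was 0.17, beside 0.00 over the bright genes and 0.01 over the measured genes. By the band of 0.5, 3 members were higher (Cyp7a1, Cyp39a1 and Akr1d1), 0 were lower and 7 lay between. Of the bright genes 3.92% were higher, 3.22% lower and 7.15% past the band in either direction. Of the measured genes, which include dim and noisy ones, 11.3% were higher, 10.4% lower and 21.7% either. The hybridization spike-ins, on 18 probe sets, all read lower on the squalene array (median log2 ratio -0.26). Scaling to them would add 0.26 to every ratio, placing Cyp27a1 (0.54) and Nr0b2 (0.74) past the band, Cyp7a1 (1.65) past 1.5 and Cyp7b1 above 0 (0.17), while Cyp8b1 (-0.08) and Hsd3b7 (-0.23) would stay below 0.

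**Figure D3:**
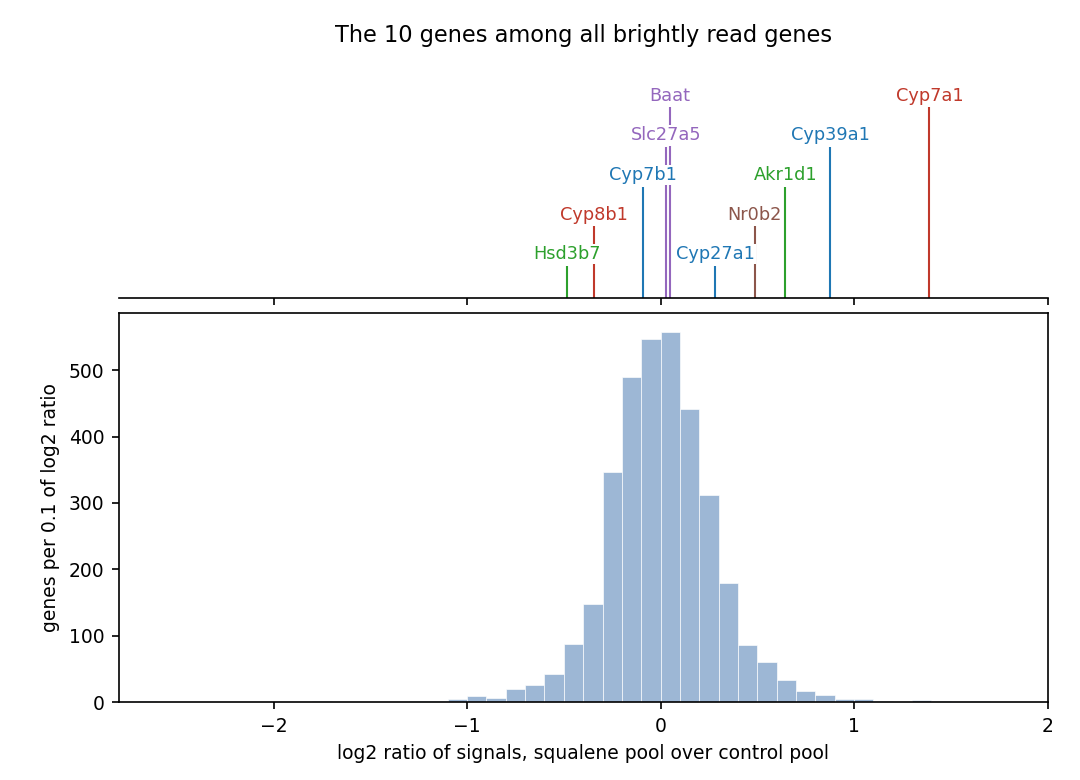
Number of bright genes per 0.1 of log2 ratio, squalene pool over control pool (lower panel, 3442 genes), with the 10 bile acid genes placed on the same horizontal axis (upper panel; line height only separates the names). Most bright genes lie within 0.5 of 0; Cyp7a1 stands at 1.39, with 3 bright genes above it, and Hsd3b7 at -0.48 is the lowest member.

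The genes whose difference was most like that of Cyp7a1 were found by the distance in log2 ratio among bright genes, a measure that rests on 2 arrays. The 6 nearest were Dbp (1.39), Lpin1 (1.42), Tff3 (1.33), Tsc22d3 (1.20), Thrsp (1.63) and Upp2 (1.13). With Cyp7a1 they were also the bright genes of highest log2 ratio. Another probe set of Tsc22d3 gave 0.57, and those of Lpin1, Thrsp and Upp2 gave 1.99, 1.68 and 1.28. Dbp, a PAR bZIP factor with a daily rhythm, read 1546.7 in the squalene pool, against 589.2 in the control pool, and its other probe set gave 1.11. Lpin1 encodes a phosphatidate phosphatase, Thrsp a lipogenic nuclear protein, Tsc22d3 a glucocorticoid-induced leucine zipper protein and Upp2 a uridine phosphorylase.

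The steps after the ring enzymes read close to 0. Peroxisomal side chain shortening was represented by 6 genes, all bright, and none lay past the band, beside 7.15% of all bright genes. Their median was -0.01. The racemase gene Amacr stood at -0.29 (1758.9 in the squalene pool and 2145.6 in the control pool), Scp2, whose thiolase makes the final cut, at -0.16, the acyl-CoA oxidase gene Acox2 at 0.14 and the transporter gene Abcd3 at 0.07. A dimmer probe set of Scp2 went the other way, at 1.09 (600.2 in the squalene pool and 282.3 in the control pool). Among other hydroxylases, Cyp2c70, which makes muricholic acids in mice, stood at -0.02, and Cyp2a12, which rehydroxylates bile acids in mice, at 0.04. Ch25h and Cyp46a1 were below the array median in both pools and are not placed.

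Of 11 measured receptors and regulators of the pathway, 9 of them bright, 2 were higher and 0 lower, and the median was 0.05. The shares higher and lower were 11.3% and 10.4% of all measured genes, and 3.92% and 3.22% of bright genes. The receptors that sense bile acids or sterols differed little. Nr1h4 read 820.6 in the squalene pool and 685.4 in the control pool (log2 ratio 0.26), and Nr1h3, the oxysterol receptor LXR alpha, read 263.5 in the squalene pool and 265.8 in the control pool (-0.01). Fgfr4 (0.10) and Klb (-0.07), the receptor pair through which intestinal FGF15 represses Cyp7a1, also lay near 0. Dimmer probe sets of Fgfr4 ran from -0.30 to 0.88, and that of Klb gave 1.20. The Fgfr4 probe set at 0.88 (2.4 in the squalene pool and 1.3 in the control pool) was far below the array median, as was that of Klb (6.2 and 2.7). The brightest probe set of Nr5a2 gave 0.29, and the other 3 gave -0.01, 0.66 and -2.60, the last of them dim in both pools. The brightest probe set of Hnf4a, an activator of Cyp7a1 and Cyp8b1, gave -0.13 (3564.5 in the squalene pool and 3891.8 in the control pool) but the other 3 gave 0.32, 0.42 and 0.39, so its direction depends on the probe set.

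The 2 regulators past the band were Ppargc1a and Foxo1. Ppargc1a, a coactivator induced by fasting that can raise Cyp7a1 transcription, read 221.3 in the squalene pool, against 74.8 in the control pool (log2 ratio 1.56), and its other 4 probe sets stood between 0.23 and 1.32. Foxo1, an insulin-restrained transcription factor, read 283.7 in the squalene pool, against 187.8 in the control pool (0.60), with its other 3 probe sets between 0.76 and 0.81. Both thus had log2 ratios above 0 on every probe set. All Ppargc1a probe sets were below the 75th percentile of the control array. The Foxo1 probe set at 0.81 was dim, at 12.8 in the squalene pool and 7.3 in the control pool.

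Most genes known to respond to FXR and LXR lay near 0. Of 5 measured FXR targets, all bright, 0 were past the band, beside 7.15% of all bright genes, with a median of 0.04. Besides Nr0b2 (0.49) they were the bile salt export pump gene Abcb11 (-0.09), the phospholipid transporter gene Abcb4 (-0.20), Fgfr4 and Mafg (0.04), a repressor of Cyp8b1. Of 8 measured LXR targets, 7 of them bright, 1 was higher, Abcg1 (0.66), 1 was lower, Srebf1 (-0.59), and 6 were inside the band. Their median was -0.08, beside 21.7% of all measured genes and 7.15% of bright genes past the band. Dimmer probe sets of Pltp (0.69) and Abca1 (-0.59) lay past the band, while the chosen ones gave -0.13 and -0.08. Abcg5 (-0.09) and Abcg8 (0.04), which export sterols into bile, lay near 0. Of 8 measured bile acid transporters, 7 of them bright, 0 were past the band, with a median of -0.02. The shares past it were 21.7% of all measured genes and 7.15% of bright genes. The uptake carrier Slco1a4 stood at 0.42, Slco1a1 at -0.37, Abcc2 at 0.27 and the main bile salt uptake carrier Slc10a1 at 0.20 (9077.7 in the squalene pool and 7876.9 in the control pool).

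**Figure D4:**
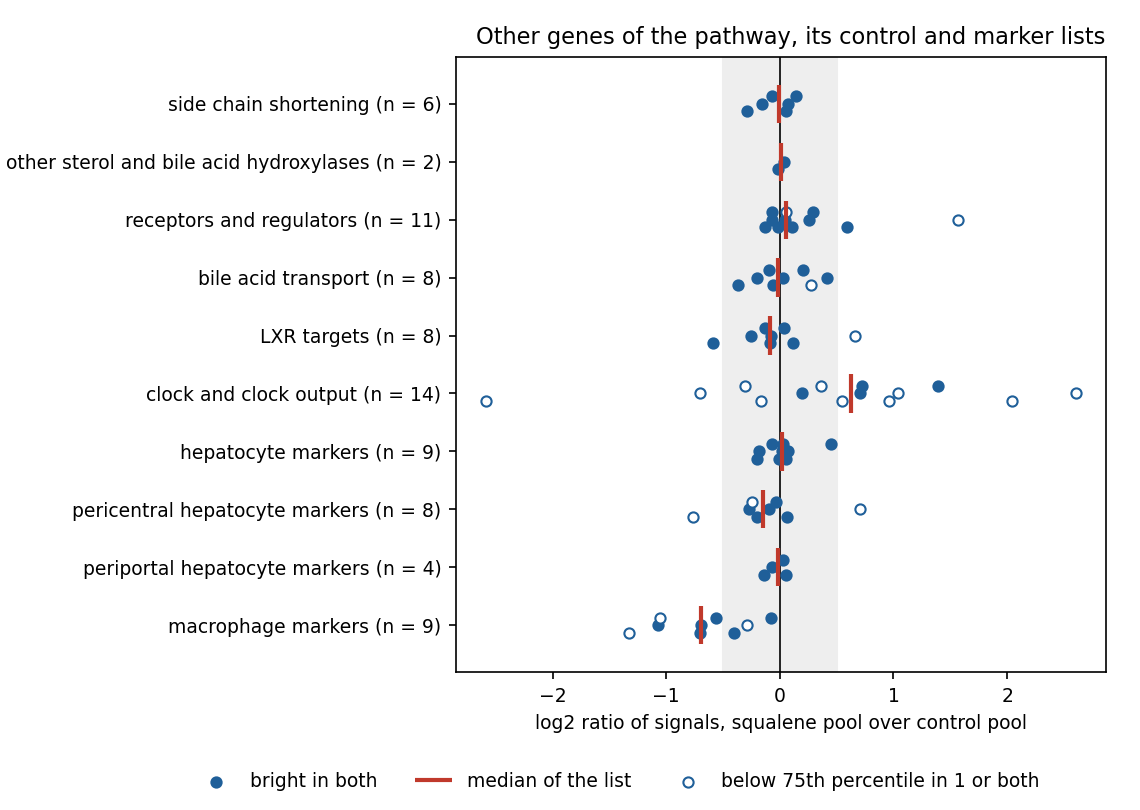
Log2 ratio, squalene pool over control pool (horizontal), of the measured genes of each list, filled where both signals are at or above the 75th percentile of their array and open otherwise; red bars mark list medians and the grey band 0.5 in either direction. The medians of the side chain, transport and hepatocyte lists lie near 0, the clock list at 0.63 and the macrophage list at -0.69.

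Clock genes were mostly higher, and macrophage markers mostly lower, in the same pool in which Cyp7a1 was higher. Cyp7a1 is known for a strong daily rhythm and for its response to feeding, and the labels give neither the hour of collection nor the feeding state. Of 14 measured clock and clock output genes, 8 were higher and 2 lower, against 11.3% and 10.4% of all measured genes, with a median of 0.63. Their summed signals were 5001.3 in the squalene pool and 2922.5 in the control pool. That sum is weighted to bright genes such as Dbp and Nr1d2 (1447.1 in the squalene pool and 888.4 in the control pool). The output genes Dbp (1.39), Hlf (1.04), Tef (0.72) and Nr1d2 (0.70) and the core genes Per3 (2.61), Per2 (2.04), Cry1 (0.96) and Cry2 (0.55) were higher, and Arntl (-2.59) and Per1 (-0.70) lower. Both Per2 and Per3 were below the array median in the control pool, and Arntl and Per1 below it in the squalene pool. These genes thus counted as measured only through the pool in which they were higher, so their place in the counts rests partly on the filter. With the probe set of smallest ratio per gene, 4 were higher and 2 lower, and the median was 0.16. Of genes measured on that probe set, 17.1% were past the band in either direction. Other, dim probe sets went the other way in Per2 (-2.41), Per3 (-0.31) and Tef (-0.43). The part of clock genes in the Cyp7a1 difference was not tested.

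Of 9 measured macrophage markers, 6 of them bright, 0 were higher and 6 lower, against 11.3% and 10.4% of all measured genes. Of the bright genes, 3.92% were higher and 3.22% lower. The median of the markers was -0.69, with summed signals of 3575.1 in the squalene pool and 5505.4 in the control pool. The 6 lower markers were Msr1 (-1.33), Lyz2 (-1.07), Marco (-1.06), Clec4f (-0.70), Vsig4 (-0.69) and Csf1r (-0.56). Marco was below the array median in the squalene pool, so it counted as measured only through the control pool, where it was higher. Centred on the spike-ins, which raised the median of all measured genes to 0.26, 3 were lower and the median was -0.44. With the signals as deposited, Cd5l (-0.40), Cd68 (-0.29) and Adgre1 (-0.08) lay inside the band. The part of the macrophage markers in the differences above was not tested. In bulk RNA, fewer cells of a type and less RNA per cell cannot be told apart.

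Markers of hepatocytes, the cells in which the pathway runs, were bright and close to 0. Of 9 measured, 0 were past the band, beside 7.15% of all bright genes. Their median was 0.02, with summed signals of 117655 in the squalene pool and 119014 in the control pool. Tat (0.45), Ttr (-0.21), Alb (-0.19) and Apob (0.07) had the largest ratios. Pericentral markers, from the zone where Cyp7a1 is mainly expressed, had a median of -0.14 over 8 genes, with 1 higher (Slc1a2, 0.71) and 1 lower (Lgr5, -0.76), both dim, and Cyp2e1 at -0.20 and Glul at -0.09. Of all measured genes, 11.3% were higher and 10.4% lower. Over 4 measured periportal genes, all bright, the median was -0.02 and none was past the band, with Cyp2f2 the farthest from 0 (-0.14). All 6 cholangiocyte markers and all 6 ileal markers on the array, Fgf15 among them, were below the array median in both pools, with summed signals of 84.4 and 44.9 in the squalene pool and 118.1 and 49.6 in the control pool.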

How the data were processed

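The authors deposited probe set intensities on a linear scale, 1 array per pool, made with MAS5 per the submitters' processing notes (version and target not stated). The 2%-trimmed mean was 200.1 in each pool. Of 22690 probe sets, 64 array controls were left out; 20380 had 1 gene symbol in the platform annotation, 691 several and 1555 none. All 10 members matched the RefSeq gene table by Entrez number.

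The log2 ratio of the squalene over the control pool was taken with no pseudocount. With 1 array per group no test exists, the number of arrays limits the precision, and counts use a band of 0.5. The named genes were the 10 members, list members past the band or otherwise the 4 with the largest ratios, a few receptors, and the 6 genes nearest to Cyp7a1. Further probe set values and Abca1, Abcg5, Abcg8, Pltp, Cyp2e1 and Glul were added after their values were seen. The members and lists were chosen with earlier results of these data known.

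Alternatives were quantile normalization, loess (fraction 0.4), centring on spike-ins or on bright genes, a pseudocount of 3.0 (the 10th percentile of signals), a floor at the array median, other probe set choices, other limits, other route membership and other signal filters. Steps were tested on simulated data. Python 3.11.15, numpy 2.4.6, pandas 2.3.3, scipy 1.17.1, statsmodels 0.14.6 and matplotlib 3.10.9 were used.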

Additional observations from a re-analysis of the deposited data

How the results depend on the processing

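Cyp7a1, Cyp39a1 and Akr1d1 stayed above 0.5 under all 10 settings of scaling, pseudocount, floor and probe set, the main one included, and Cyp7a1 ranged from 1.38 to 1.65. Cyp8b1 stayed below 0 under all 10 and Hsd3b7 under the 9 that gave it a value, while Cyp7b1 was above 0 under 3. Values were judged against the SD of 0.18 between probe sets of a gene, since no replicates exist. Centring on the spike-ins moved every gene up by 0.26 by its construction: Cyp7a1 to 1.65 (past 1.5), the median of the 10 members from 0.17 to 0.42, the members past 0.5 from 3 to 5, and, of the 35 other measured genes of side chain shortening, hydroxylation, regulation, transport and the FXR and LXR lists, those past 0.5 from 4 to 7 (that count, the clock and macrophage counts and the other members' values were added after seeing the data). Under the spike-in centring 30.8% of all measured genes were past 0.5, against 21.7% with the signals as deposited, so these counts rose along with the background. At a limit of 1.0, 1 member was past it, and at 1.5, 0. The difference between routes was 0.43 without Cyp39a1 and reversed to -0.054 with Akr1d1 and Hsd3b7 counted as classic. The background share past 0.5 was 41.3% of genes with no filter, 14.2% with both pools at or above the array median and 7.15% with both at or above the 75th percentile. No paired analysis was possible because each group has 1 array. Dim genes are the least certain, and nothing here measures the spread between animals.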
